A study of Mus musculus with 354 samples.

Results

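The genes described here are 2 galectins (Lgals1, Lgals3), 4 annexins (Anxa1, Anxa2, Anxa3, Anxa5) and 2 beta thymosins (Tmsb4x, Tmsb10), taken as 8 rows of the 55367 genes counted in each cell. They were grouped as genes of cell motility and membrane repair, and were selected on their levels in these cells: by genotype, by plate, and in cells with and without Spp1 at 100 CPM or more (CPM is a gene's count scaled to 1000000 counts per cell). For that reason the values by genotype and by Spp1 are given below as a description, and they are not independent evidence of a direction. The Spp1 values carry no test, and no genotype call is read as a result for the 8 genes.

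Galectins are small lectins that bind beta-galactosides on glycoproteins at the cell surface, and galectin-1, the product of Lgals1, is secreted and crosslinks matrix and receptor glycans. Annexins bind acidic phospholipids when calcium rises, so they gather at a damaged plasma membrane, and annexin A2 does so as a complex with S100A10. Beta thymosins hold actin monomers in reserve, and with profilin and cofilin they set how fast actin filaments are built and taken apart at a moving edge. Spp1 encodes osteopontin, a secreted matrix protein that binds integrins and CD44, and CA-ERBB2 is a constitutively active form of the receptor tyrosine kinase ERBB2.

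Single GFP-positive cells were sorted from the cochleae of P3 pups of 2 genotypes, 177 cells of each, and read by full-length RNA sequencing. CA-ERBB2 pups carried 3 alleles, which were TetON-CAERBB2, ROSA-floxed-rtTA/GFP and the driver Fgfr3-iCre, and Control littermates lacked the first of these and had both others. The protocol gives tamoxifen at 75 mg/kg at P0 and P1 and doxycycline at 100 mg/kg at P2, and names doxycycline in the sample labels of CA-ERBB2 only. Each genotype filled 59 wells on each of 3 plates, and the plate, taken as 1 FACS experiment with pooled pups of unrecorded sex, was the replicate. The Fgfr3-iCre driver marks Deiters and pillar cells and can also mark other cochlear cells, so the sorted cells are a mixture.

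Total counts ran from 6082 to 5160875 per CA-ERBB2 cell and from 1443 to 5178221 per Control cell, and 2 CA-ERBB2 and 33 Control cells had fewer than 100000. Erbb2, which the transgene encodes, was higher on each CA-ERBB2 plate (106, 46.0 and 120 CPM in the summed counts) than on any Control plate (19.8, 3.24 and 12.4 CPM). The 12 supporting cell markers were present in both genotypes, with medians of their summed level from 257 to 562 CPM over the 4 classes of cells formed by genotype and Spp1. Few of the 12 had a median above 0. These were 1 and 3 in CA-ERBB2 cells with and without Spp1 at 100 CPM or more, and 4 and 1 in such Control cells. The 10 markers of the greater epithelial ridge had summed medians from 1734 to 4300 CPM. Markers of macrophages, hair cells, mesenchyme and red blood cells were each detected in some cells of every class. Spp1 reached 100 CPM in 72 of 177 CA-ERBB2 cells (10, 31 and 31 on plates 1, 2 and 3) and in 33 of 177 Control cells (14, 10 and 9).

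All values rest on reads that could be assigned to 1 gene, and for the thymosins the sequences are shown here because the genes are short and alike. The coding sequences in GENCODE M21 (build GRCm38) were 135 bases each, and capitals mark the 40 positions at which they differ.
Tmsb4x: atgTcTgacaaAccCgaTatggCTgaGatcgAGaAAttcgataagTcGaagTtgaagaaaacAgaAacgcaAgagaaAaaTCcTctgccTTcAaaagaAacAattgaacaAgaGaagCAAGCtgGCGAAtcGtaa
Tmsb10: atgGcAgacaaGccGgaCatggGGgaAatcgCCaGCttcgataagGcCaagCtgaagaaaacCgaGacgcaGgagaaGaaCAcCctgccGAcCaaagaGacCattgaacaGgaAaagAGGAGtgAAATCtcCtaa
They were identical at 95 of 135 positions (70.4%), and the longest stretch without a difference was 10 bases, so a read of more than 10 bases within the coding sequence covers at least 1 of the capital letters. No 50-base stretch of the principal Tmsb4x transcript occurred in a transcript of another gene. In Tmsb10, 279 of 641 such stretches (43.5%) also occurred in transcripts of 5 other annotated genes. The most counted of these copies, Gm3788, had 0.519% of the Tmsb10 count among CA-ERBB2 cells and 0.482% among Control cells. None of the 50-base stretches of Lgals1, Lgals3, Anxa1, Anxa2, Anxa3 and Anxa5 was shared. Lgals1 lies at chr15:78926725-78930465 on the plus strand, Anxa1 at chr19:20373428-20390944 on the minus strand, and Tmsb4x at chrX:167207093-167209315 on the minus strand, and reads over all their exons, UTRs included, were counted.

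Counts were summed over the cells of each plate, scaled by TMM factors and divided by exon length to compare levels between genes. In CA-ERBB2 cells Lgals1 (7182 ± 5923 CPM per kb of exon, SD, n = 3 plates) and Tmsb4x (5089 ± 3873) were the highest, and their ranges over plates overlapped. Tmsb10 (688 ± 402) and Anxa5 (608 ± 75.2) followed, and Anxa2 (230 ± 123) and Anxa1 (216 ± 159) lay below them. Lgals3 (12.7 ± 20.8) and Anxa3 (12 ± 13.5) were the lowest, with an SD above the mean in each. In Control cells Tmsb4x (1778 ± 828 CPM per kb) stood above Lgals1 (775 ± 586), and Anxa1 (15.2 ± 7.76) was closer to Lgals3 (8.10 ± 13.3) than to Anxa2 (78.0 ± 24.4). Most neighbours in this order overlapped over their plates. The exceptions were Anxa5 above Anxa2 in CA-ERBB2 cells, and Tmsb10 above Anxa2 and Anxa2 above Anxa1 in Control cells.

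The first comparison asked how the 8 genes differ between CA-ERBB2 and Control plates, using the summed counts of 3 plates against 3. Differences are log2 fold changes, CA-ERBB2 over Control, from edgeR. Their standard errors (SE) were derived as the size of the log2 fold change over the square root of edgeR's F statistic. All 8 passed the filter on low counts, all 8 differences were above 0, and their median was 1.34, beside -0.02 over all 21416 genes tested. Over the whole table the quasi-likelihood test called 1 gene, which is 0.00467% of those tested and was not among the 8, and no call is read for the 8 genes, which were chosen on this contrast.

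Lgals1 was at 379, 8738 and 10339.7 CPM on CA-ERBB2 plates 1, 2 and 3, and at 326, 1306 and 468 CPM on the Control plates. Plates 2 and 3 of CA-ERBB2 lay above all Control plates, while plate 1 lay within their range, and the difference was 3.21 (SE 1.04). Lgals3, a galectin best known from macrophages and epithelia, was at 1.14, 68.3 and 1.47 CPM against 0.652, 43.7 and 0.860 CPM. Plate 2 was the high plate in both genotypes, the groups overlapped, and the difference of 0.65 (SE 1.73) was smaller than its error. Without CA-ERBB2 plate 2 it was -3.53, and without Control plate 2 it was 4.95, so each of these plates set its direction, and among cells with at least 2000 genes detected it was -3.83.

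Anxa1, whose product is released and acts on formyl peptide receptors to limit inflammation, was at 102, 819 and 966 CPM on the CA-ERBB2 plates and at 57.2, 18.3 and 57.7 CPM on the Control plates. The groups did not overlap, and the difference of 3.82 (SE 0.85) was the largest of the 8. Anxa2 was at 439, 784 and 1346 CPM against 251, 227 and 395 CPM, again without overlap, with a difference of 1.56 (SE 0.55). For these 2 of 8 genes every CA-ERBB2 plate lay above every Control plate, beside 4.2% of all genes tested. Anxa3 was at 8.28, 99.7 and 22.9 CPM against 12.1, 45.1 and 1.12 CPM, overlapping, with a difference of 1.17 (SE 1.18). Anxa5, which binds exposed phosphatidylserine, was at 932, 1122 and 1189 CPM against 421, 405 and 1235 CPM. Control plate 3 lay above all 3 CA-ERBB2 plates, and the difference was 0.65 (SE 0.56), or 1.41 without that Control plate.

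Tmsb4x was at 932, 10884.8 and 9113 CPM on the CA-ERBB2 plates and at 1206, 3442 and 2664 CPM on the Control plates. The first CA-ERBB2 plate was the lowest of all 6, and the other 2 were the highest, with a difference of 1.52 (SE 0.82). Tmsb10 was at 311, 1012 and 1309 CPM against 226, 499 and 578 CPM. Its first CA-ERBB2 plate lay above the first Control plate and below both others, and the difference was 1.01 (SE 0.62). For each of the 8 genes the first CA-ERBB2 plate, which held 10 cells with Spp1 at 100 CPM or more, was the lowest of its genotype. Pups were not sexed and Tmsb4x is X-linked, and the part of sex in its plate differences was not tested.

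**Figure D1:**
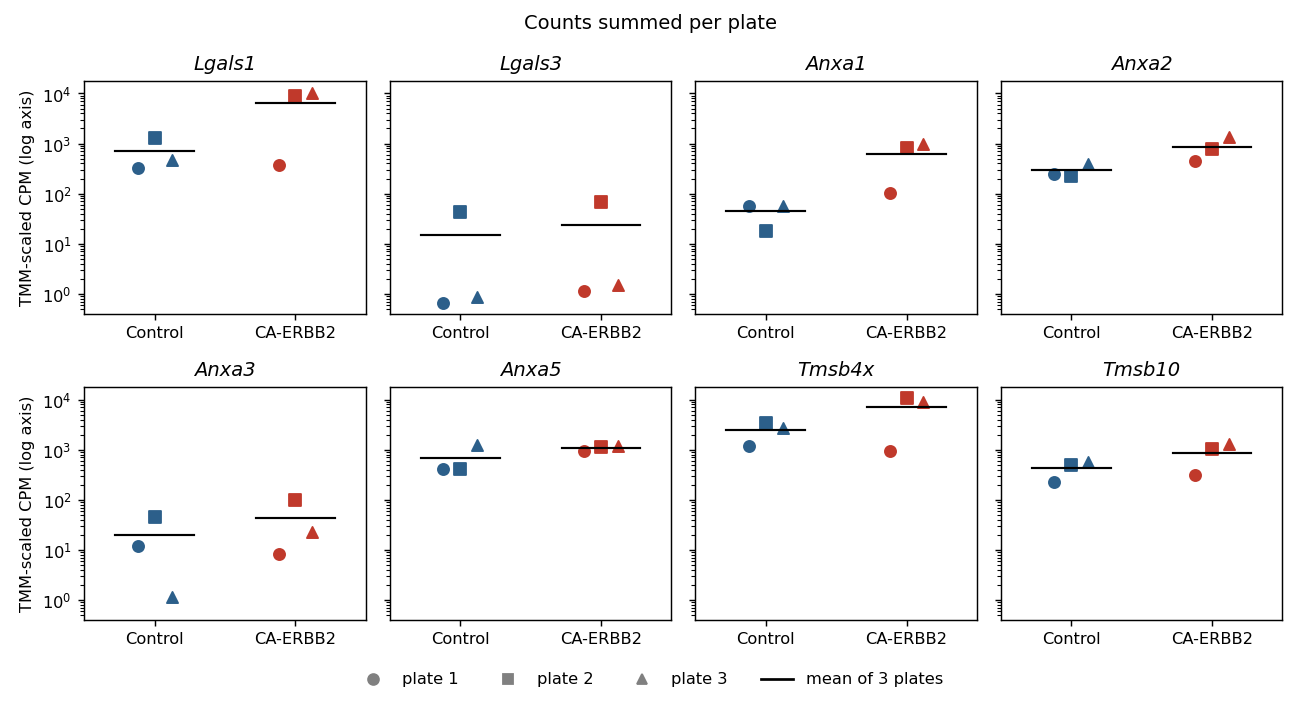
Level of each of the 8 genes in the counts summed per plate, as TMM-scaled CPM on a log axis, for the 3 Control plates (blue) and the 3 CA-ERBB2 plates (red), with the plate given by the shape and the mean by a line. Anxa1 and Anxa2 show no overlap between genotypes, while CA-ERBB2 plate 1 falls among the Control plates for Lgals1 and Tmsb10 and below them for Tmsb4x.

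Detection, the share of cells with at least 1 count, was also higher in CA-ERBB2 for all 8 genes when every cell was counted. Lgals1 was detected in 80.2 ± 10.4% of CA-ERBB2 cells and 58.2 ± 27.9% of Control cells (SD over 3 plates), and Anxa1 in 37.9 ± 3.53% and 17.5 ± 14.4%. Tmsb4x was detected in 91.0% and 71.8%, Tmsb10 in 90.4% and 71.2%, Anxa2 in 70.1% and 52.0%, and Anxa5 in 70.1% and 59.9%. Anxa3 (16.4% and 13.6%) and Lgals3 (5.65% and 3.95%) were rare in both. The median difference over the 8 genes was 18.6 percentage points, beside 3.95 over the 15147 genes found in 10% or more of cells. For 0 of the 8 genes was every CA-ERBB2 plate above every Control plate, beside 0.898% of those 15147 genes. Anxa1 came closest, with 39.0%, 40.7% and 33.9% on the CA-ERBB2 plates and 33.9%, 11.9% and 6.78% on the Control plates, a tie between the lowest and the highest.

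Depth moved with this result, since 33 Control cells but 2 CA-ERBB2 cells had fewer than 100000 counts. When each cell was thinned to 100000 counts and the shallower cells were left out, the difference for Lgals1 went from 22 to 6.69 percentage points, for Tmsb4x from 19.2 to 5.38, and for Tmsb10 from 19.2 to 5.05. For Anxa5 it went from 10.2 to 2.73, for Anxa2 from 18.1 to 10.1, and for Anxa3 and Lgals3 it turned to -1.31 and -0.22. Anxa1 kept its difference, 20.3 before and 19.6 after thinning, with thinned shares of 35.4 ± 3.70% and 15.8 ± 8.79%.

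The second comparison asked how the genes vary with Spp1 within a plate. Cells with Spp1 at 100 CPM or more (Spp1-high cells) were set beside the other cells of the same plate, as the difference of their mean log2(CPM + 1). In CA-ERBB2, 2 of the 8 genes, Lgals1 and Anxa1, were higher by more than 1 on all 3 plates, beside 0.678% of the 15639 genes found in 10% or more of these cells, and 0 were lower by more than 1 on all 3 plates, as was true of all genes (0%). Of the 8 genes, 7 were themselves over that 10%, and Lgals3 was not. The median difference of the 8 genes was 1.46, beside 0.16 over all genes.

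Lgals1 had a median of 647, 7194 and 9948 CPM in the Spp1-high cells of CA-ERBB2 plates 1, 2 and 3, and of 140, 12.4 and 0 CPM in the other cells. The Spp1-high cells were higher on each plate, by 3.40, 5.79 and 8.32 (mean 5.84), which gave Lgals1 rank 3 from the top among the 15639 genes. It reached 100 CPM in 65 of 72 Spp1-high cells and 48 of 105 other cells. Anxa1 had medians of 328, 160 and 399 CPM in the Spp1-high cells and of 0 CPM in the other cells on every plate. Its differences were 3.61, 5.42 and 4.96 (mean 4.66), and it reached 100 CPM in 40 of 72 and 10 of 105 cells. Both at once, Lgals1 and Anxa1 at 100 CPM or more, were found in 39 of 72 Spp1-high cells (6 of 10, 16 of 31 and 17 of 31 by plate) and in 7 of 105 other cells.

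The remaining genes differed by plate. Tmsb4x differed by 0.22, 2.40 and 5.17 (mean 2.59), with medians of 978, 4657 and 6704 CPM in the Spp1-high cells and of 666, 2361 and 1084 CPM in the other cells. It was already at 100 CPM or more in 79 of 105 cells without high Spp1, against 68 of 72 with it. Anxa5 was lower in the Spp1-high cells of plate 1 (-1.27) and higher on plates 2 and 3 (2.64 and 3.34), and Anxa2 went the same way (-0.97, 2.40 and 2.20). Tmsb10 differed by 0.11, 2.39 and 1.54, Anxa3 by 1.48, 0.24 and 0.21, and Lgals3 by 0.11, -0.64 and 0.03. Leaving out wells A12 to D12 kept 62 of the 72 Spp1-high and 103 of the 105 other CA-ERBB2 cells. Most of the removed wells were thus Spp1-high, and 2 of them were among the 10 such cells of plate 1. Anxa3 then differed by 0.67, -0.20 and -0.22. On plate 1 Anxa2, Anxa5 and Tmsb4x differed by -1.82, -1.91 and -0.29. Without plate 1, on which the Spp1-high cells numbered 10, 6 of the 8 genes were higher by more than 1 on both remaining plates, and Lgals3 and Anxa3 were not.

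The difference in mean log2 level reflects how many cells carry a gene as well as how much they carry. On the log2 ratio of mean CPM + 1, which follows the cells with the most counts, Lgals1 (2.68) and Anxa1 (3.38) remained above 1, while Tmsb4x was at 0.70, Anxa2 at 0.34, Tmsb10 at -0.06 and Anxa5 at -0.10. For these last 2 genes the direction therefore depended on the scale. The number of genes detected differed between the classes as well. It had medians of 8788, 3110 and 2916 in the Spp1-high cells and of 10313, 2942 and 1114 in the other cells, and its part in the differences was not tested. Among cells with at least 2000 genes detected, Lgals1 differed by 5.0, Anxa1 by 5.42 and Tmsb4x by 2.06, each above 1 on all 3 plates.

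**Figure D2:**
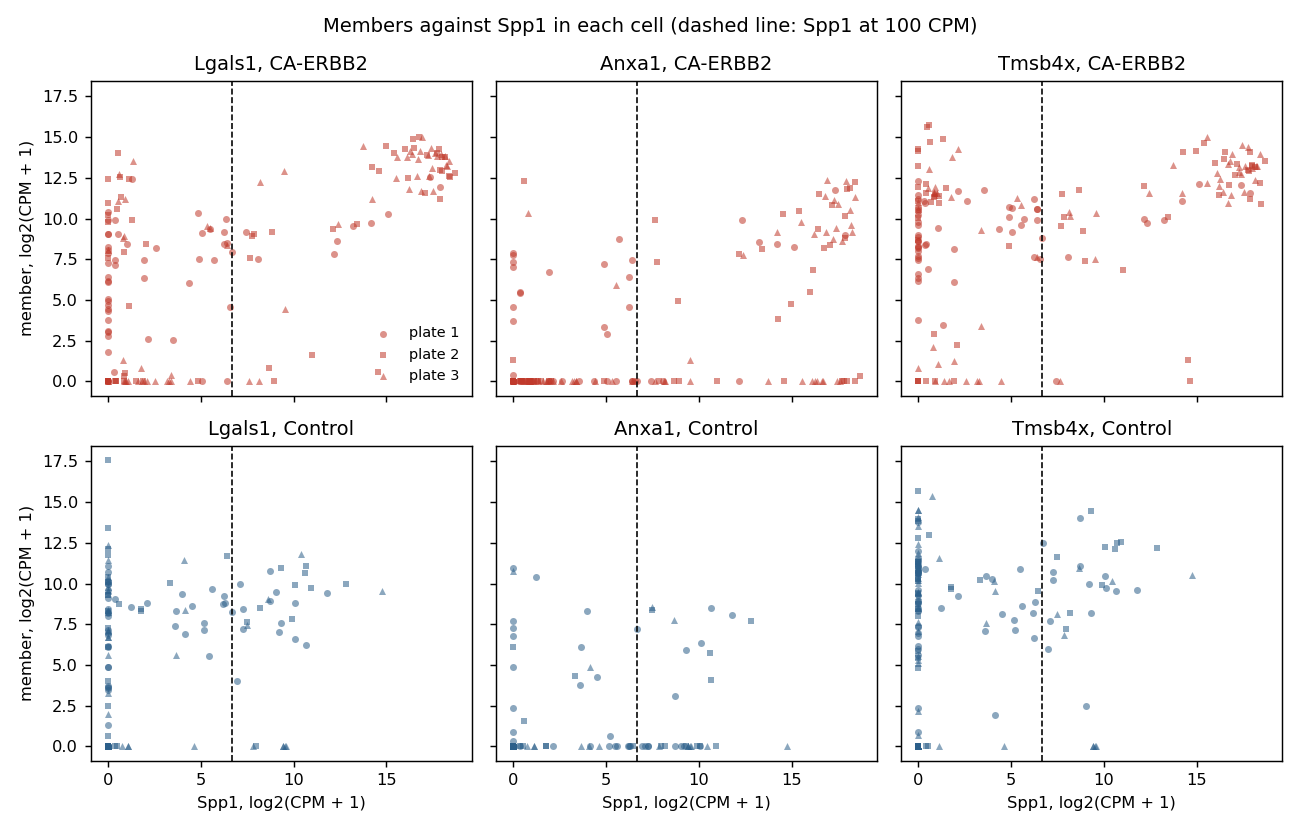
Level of Lgals1, Anxa1 and Tmsb4x against Spp1 in each of the 177 CA-ERBB2 cells (top) and 177 Control cells (bottom), both axes as log2(CPM + 1), with the plate given by the shape and the threshold of 100 CPM by a dashed line. The cells at the far right are CA-ERBB2 cells with high Lgals1, whereas Anxa1 is split there between cells at 0 and cells with a high level.

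The level of Spp1 itself was graded in finer steps, since the threshold joins cells that differ widely. In CA-ERBB2 the mean log2 level of Lgals1 was 5.34 in the 62 cells with Spp1 under 1 CPM, 3.99 in 24 cells from 1 to 10 CPM, 6.33 in 19 cells from 10 to 100 CPM and 6.41 in 14 cells from 100 to 1000 CPM. It was 7.77 in 6 cells from 1000 to 10000 CPM and 12.90 in the 52 cells with 10000 CPM or more. Anxa1 followed with 1.19, 0.28, 2.45, 1.68, 5.68 and 6.79 over the same steps. For Lgals1 the cells just inside the threshold were close to those just outside it, while Anxa2 went from 6.34 just outside to 2.0 just inside and Anxa5 from 7.97 to 4.93, and the median number of genes detected went from 10653 to 3006. The 3 cells nearest above 100 CPM of Spp1, over both genotypes, held 251, 301 and 15.1 CPM of Lgals1, and the 3 nearest below held 22.3, 3371.0 and 361 CPM. With the threshold at 1000 CPM, Anxa1, Anxa2, Lgals1 and Tmsb4x were all higher by more than 1 on all 3 plates.

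Of the 72 Spp1-high CA-ERBB2 cells, 36 also had Timp1, Mmp9 and Dmp1 at 100 CPM or more, which encode an inhibitor of matrix metalloproteases, a matrix metalloprotease and a matrix protein of mineralized tissue. In these 36 cells Lgals1, Tmsb4x and Tmsb10 reached 100 CPM in all 36, Anxa5 in 30, Anxa1 in 27, Anxa2 in 25, Anxa3 in 1 and Lgals3 in 0. Without them, the remaining 36 Spp1-high cells still differed from the other cells by 4.39 for Lgals1 and by 2.62 for Anxa1, each above 1 on all 3 plates. Anxa5 and Anxa2 then differed by -0.08 and 0.08.

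Spp1-high cells were also found among Control cells, where 33 of 177 cells passed the threshold and 0 cells carried all 4 of those genes. There 3 of the 8 genes, Lgals1 (1.47, 5.15 and 1.33), Anxa1 (1.14, 2.35 and 1.5) and Anxa5 (1.34, 3.79 and 2.82), were higher by more than 1 on all 3 plates, beside 3.85% of 14731 genes, and 0 were lower (0% of all genes). The median over the 8 genes was 1.69, beside 0.53 over all genes. In the Spp1-high Control cells the medians were 325, 907 and 0 CPM for Lgals1 and 0 CPM for Anxa1 on each plate. Lgals1 and Anxa1 together were at 100 CPM or more in 6 of these 33 cells. Spp1 itself had medians of 472, 1014 and 676 CPM in them, against 7333, 74005.9 and 105604.0 CPM in the Spp1-high CA-ERBB2 cells. From 100 to 1000 CPM of Spp1 the mean log2 level of Lgals1 was 6.05 in 22 Control cells and 6.41 in 14 CA-ERBB2 cells. From 1000 to 10000 CPM it was 9.42 in 10 Control cells and 7.77 in 6 CA-ERBB2 cells. Anxa1 was at 1.86 and 1.68 in the first step and at 4.05 and 5.68 in the second. Only 1 Control cell had Spp1 at 10000 CPM or more. Of the 9 Spp1-high cells on Control plate 3, 2 were wells of 1479 and 6619 counts with 1 and 5 counts of Spp1. Among cells with at least 100000 counts, a setting added after seeing the data, the medians on that plate were 675 CPM for Spp1 and 176 CPM for Lgals1, and the same 3 genes were higher by more than 1 on all 3 plates, with 2.08 in place of 5.15 for Lgals1 on plate 2. Tmsb4x (0.73, 6.10 and -0.18), Anxa2 (0.10, 4.04 and 0.98) and Tmsb10 (-0.87, 3.52 and -0.64) differed most on plate 2, where the values were 2.80, 2.48 and -0.01 among cells with at least 100000 counts. On that plate the other cells had a median of 693 genes detected against 5331 in the Spp1-high cells, and the summed level of 12 macrophage and osteoclast markers had a median of 336 CPM in the Spp1-high cells and 0 CPM in the others. The part of these 2 measures in the Control values was not tested, and whether the genotypes differ in the size of these within-plate differences was not tested.

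**Figure D3:**
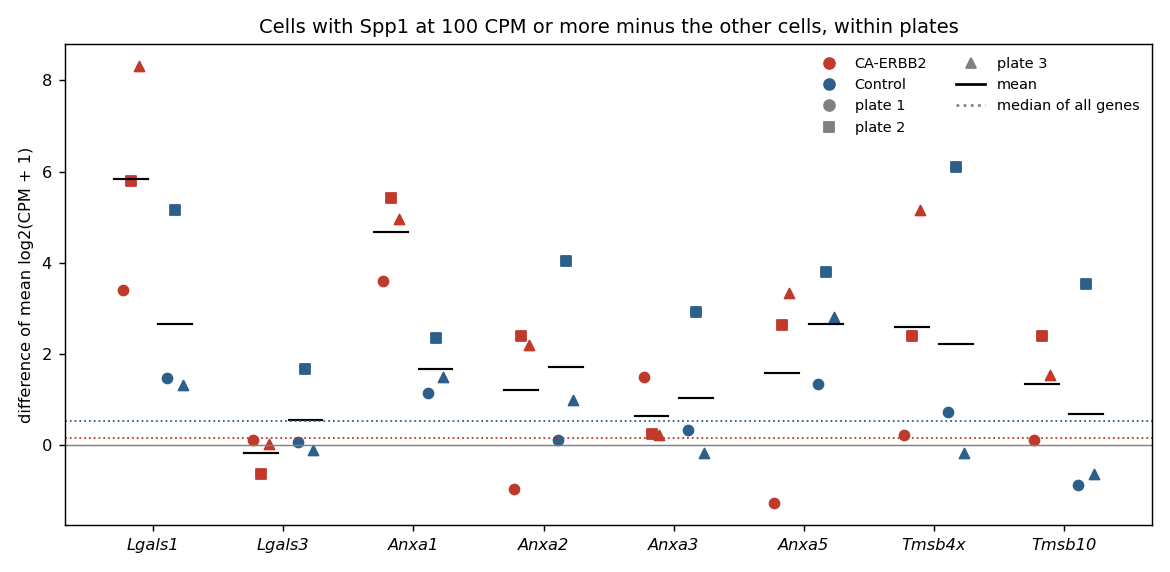
Difference of mean log2(CPM + 1) between cells with Spp1 at 100 CPM or more and the other cells, for the 8 genes on each of the 3 CA-ERBB2 (red) and 3 Control (blue) plates, with the mean over plates as a line and the median of all genes as a dotted line per genotype. Lgals1 and Anxa1 lie above 1 on all 6 plates, and the CA-ERBB2 differences of Anxa2 and Anxa5 fall below 0 on plate 1.

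Markers of other cell types were read in the same cells. In the Spp1-high CA-ERBB2 cells the summed level of the 12 macrophage and osteoclast markers ranged from 0 to 11799 CPM with a median of 0 CPM, and 0 of the 12 had a median above 0. In the other CA-ERBB2 cells it ranged from 0 to 21255.6 CPM with a median of 0.574 CPM. Several other marker lists differed across the split. Of the 6 mesenchyme markers 3 (Col1a1, Col1a2 and Postn) were higher by more than 1 in the Spp1-high cells on all 3 CA-ERBB2 plates, and the median difference of the list was 1.31. Their summed level had medians of 3828, 1548 and 1253 CPM in the Spp1-high cells and of 4201, 71.4 and 10.7 CPM in the other cells, so it was lower on plate 1, with ranges of 0 to 18014.1 and 0 to 47087.6 CPM. In Control cells Col1a1, Col3a1 and Pou3f4 were higher on all 3 plates by the same rule, with summed medians of 9735, 3171 and 0 CPM against 3925, 17.1 and 286 CPM, lower on plate 3. Of the 10 greater epithelial ridge markers 1, Itm2a (1.51, 4.03 and 3.63), passed that rule in CA-ERBB2, with a list median of 0.94. Over all genes 0.678% passed it in CA-ERBB2 and 3.85% in Control cells. The 12 supporting cell markers had a median difference of -0.46 and the 6 epithelial markers one of -0.36, with 0 of either list past 1 in size on all 3 plates. Members below 0 on every plate included Cryab (-2.30, -0.69 and -1.61) of the first list and Cdh1 (-1.32, -1.26 and -0.82) and Krt18 (-1.38, -0.73 and -0.72) of the second. They were picked for that, and the summed levels did not fall on every plate. Medians of the supporting cell list were 436, 541 and 224 CPM in the Spp1-high cells and 480, 423 and 887 CPM in the others, so higher on plate 2. Those of the epithelial list were 164, 0 and 0 CPM against 131, 1.33 and 0 CPM, so higher on plate 1. The part of these lists in the levels of Lgals1 and Anxa1 was not tested.

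The other galectins, annexins and beta thymosins are described next. They were left over when the genes above were selected on their levels by genotype, by plate and by Spp1. That selection shaped the remainder too, so a lower value among these other members is not independent evidence, and they are no neutral background. By edgeR's quasi-likelihood test between genotypes, 0 of the 15 that passed the filter on low counts passed an adjusted p (Benjamini-Hochberg) of 0.05, 3 had an unadjusted p under 0.05, and DESeq2 called 2 (Lgals7 and Anxa9). Their median log2 fold change was -0.27, and 6 of 15 were above 0. Of all 21416 genes tested, 594 were above 0 and 512 below 0 at an unadjusted p under 0.05 by edgeR, and DESeq2 called 235. These counts are the background for the lists that follow as well. Anxa9 was at 19.7, 23.8 and 19.9 CPM on the CA-ERBB2 plates and at 3.68, 2.45 and 3.35 CPM on the Control plates, without overlap (2.74, SE 0.81). Lgals7, a galectin of stratified epithelia, was at 0.381, 25.1 and 27.1 CPM against 0.248, 0.521 and 0.604 CPM (5.26, SE 1.51), with 19 CA-ERBB2 and 4 Control cells holding a count. Anxa4, an annexin of secretory epithelia, lay the other way, at 54.2, 64.8 and 28.4 CPM against 66.2, 220 and 179 CPM (-1.66, SE 0.60).

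Among the more abundant of these, Anxa6 (-0.98, SE 0.57) and Anxa7 (-0.54, SE 0.51) had values below 0, and Lgals8, which senses glycans exposed on damaged endosomes, was at -0.07 (SE 0.54). Lgals9 was at -1.06 (SE 0.77), Lgals3bp at -1.36 (SE 1.00), Lgalsl at -0.27 (SE 0.73), Lgals2 at 1.08 (SE 1.33), Lgals4 at 0.35 (SE 1.31) and Anxa11 at 0.87 (SE 1.47). Of the thymosins of the Tmsb15 group, Tmsb15b1 was at -1.94 (SE 1.58), Tmsb15l at -0.77 (SE 1.73) and Tmsb15b2 at 0.11 (SE 1.24). Both Tmsb15l and Tmsb15b2 were below 1 CPM on every plate, and Anxa11 had means of 0.877 CPM in CA-ERBB2 and 0.479 CPM in Control. Lgals12, Anxa8 and Tmsb15a were found in at most 5 cells of a genotype, and Anxa10 and Anxa13 in 0. In the Spp1 comparison 0 of these 20 genes were higher or lower by more than 1 on all 3 plates in either genotype. Over all genes 0.678% were higher in CA-ERBB2 and 3.85% in Control cells. The 8 other annexins had a median difference of 0.14 in CA-ERBB2, and the 8 other galectins one of 0.67.

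The S100 partners of annexins had the highest median of the lists, 2.58 over 4 genes, although 0 of 4 were called by edgeR's quasi-likelihood test (3 had an unadjusted p under 0.05, and DESeq2 called 1). S100a6 was at 616, 1279 and 1188 CPM on the CA-ERBB2 plates and at 63.4, 111 and 66.8 CPM on the Control plates, without overlap (3.68, SE 0.56), with an adjusted p of 0.283 by edgeR, and it was the gene that DESeq2 called. S100a10, the partner of annexin A2, was at 119, 714 and 843 CPM against 104, 193 and 298 CPM (1.49, SE 0.71). S100a11, a partner of annexin A1, was at 112, 507 and 582 CPM against 117, 128 and 200 CPM (1.43, SE 0.63), and S100a4 was at 0.962, 27.2 and 19.2 CPM against 1.61, 1.98 and 0.058 CPM (3.69, SE 1.52). As with Lgals1, the first CA-ERBB2 plate lay within or close to the Control range for S100a10, S100a11 and S100a4. In the Spp1 comparison within CA-ERBB2 plates S100a10 differed by -0.76, 4.00 and 4.06 and S100a11 by 0.99, 1.59 and 2.33, so 0 of the 4 exceeded 1 on every plate.

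Of 26 genes of actin monomer binding and filament turnover, edgeR's test called 0 (3 had an unadjusted p under 0.05, and DESeq2 called 0), with a median log2 fold change of 0.50 and 20 of 26 above 0. The 3 with the smallest p were Tagln2 (2.55, SE 0.64), a small actin-binding protein, Capg (2.63, SE 0.76), which caps filament ends, and Arpc2 (1.56, SE 0.54), a subunit of the Arp2/3 complex that starts branched filaments. Their adjusted p values by edgeR were 0.774, 0.858 and 0.911. In the Spp1 comparison 3 of the 26, Gsn (1.98, 1.66 and 2.80), Coro1c (1.57, 1.11 and 2.36) and Msn (1.77, 2.57 and 1.68), were higher by more than 1 on all 3 CA-ERBB2 plates. They encode gelsolin, which severs filaments, a coronin, and moesin, which ties filaments to the membrane. In Control cells Arpc5 (1.34, 4.53 and 2.31) and Tagln2 (1.40, 2.52 and 1.62) were the 2 that did so. The shares over all genes were 0.678% in CA-ERBB2 and 3.85% in Control cells.

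Of the 19 membrane repair genes 18 were tested between genotypes, and edgeR's test called 0 (0 had an unadjusted p under 0.05, and DESeq2 called 0), with a median log2 fold change of 0.03 and 9 of 18 above 0. Dysf, whose product dysferlin seals muscle membranes, was low, with a mean log2 level of 0.35 in the Spp1-high and 0.70 in the other CA-ERBB2 cells. In the Spp1 comparison 1 of the 19, Ahnak (1.27, 2.12 and 1.89), a giant scaffold protein that binds annexin A2 with S100A10, was higher by more than 1 on all 3 CA-ERBB2 plates, and Vps4b (1.38, 1.84 and 1.62) on the Control plates. The shares over all genes were again 0.678% and 3.85%. The median difference of the list in CA-ERBB2 was 0.25, that of the actin genes 1.06 and that of the S100 partners 1.35, beside 0.16 over all genes.

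The third comparison used cell markers that had no part in choosing the genes: S100b, a marker of pillar and Deiters cells, Epyc and Dcn, matrix proteoglycans, and Mki67 or Top2a for cycling cells. Within each plate the mean log2(CPM + 1) of cells with the marker at 100 CPM or more was compared with that of the other cells among the 319 cells with at least 100000 counts, by a two-sided exact sign-flip permutation test over 6 plates, with Benjamini-Hochberg adjustment over 32 pairs of gene and marker. The smallest p that 6 plates allow is 0.03125, so more than 20 pairs would have to reach it for any to have an adjusted p under 0.05. Pairs with cycling cells, compared on fewer plates, could not reach it, so the test had little room to call any pair. The test called 0 of the 32 pairs, with a smallest adjusted p of 0.25, and 4 pairs reached the smallest p.

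Anxa5 was higher in S100b cells by 1.21, 0.30 and 1.73 on the CA-ERBB2 plates and by 2.17, 2.64 and 4.18 on the Control plates, which is 6 of 6 plates with a mean of 2.04 ± 1.32 (SD). Lgals1 went mostly the other way. It was lower in S100b cells on all 3 CA-ERBB2 plates (-3.06, -1.71 and -3.03) and on 2 Control plates (-0.17 and -1.28), and higher on the last Control plate (1.38), with a mean of -1.31 ± 1.72 (exact permutation p = 0.125, adjusted 0.4). In Dcn cells Anxa2 (1.56 ± 1.17), Anxa3 (0.91 ± 0.48) and Anxa5 (1.53 ± 1.06) were higher on 6 of 6 plates, and Lgals1 (1.92 ± 1.14) and Anxa1 (1.40 ± 1.63) on 5 of 6. In Epyc cells Lgals1 was higher on 5 of 6 plates (1.82 ± 1.2, exact permutation p = 0.0625, adjusted 0.286).

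When the cells with under 2000 genes detected were left out, the mean for Anxa5 fell to 0.90 in S100b cells and to -0.23 in Dcn cells, and that for Anxa2 in Dcn cells to 0.58, while Anxa3 in Dcn cells stayed at 0.90 and higher on 6 of 6 plates. Cycling cells were compared on 4 plates with 18 marker cells in all, where the smallest p is 0.125. Lgals1 was higher in them on 4 of 4 plates (1.92 ± 0.44).

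**Figure D4:**
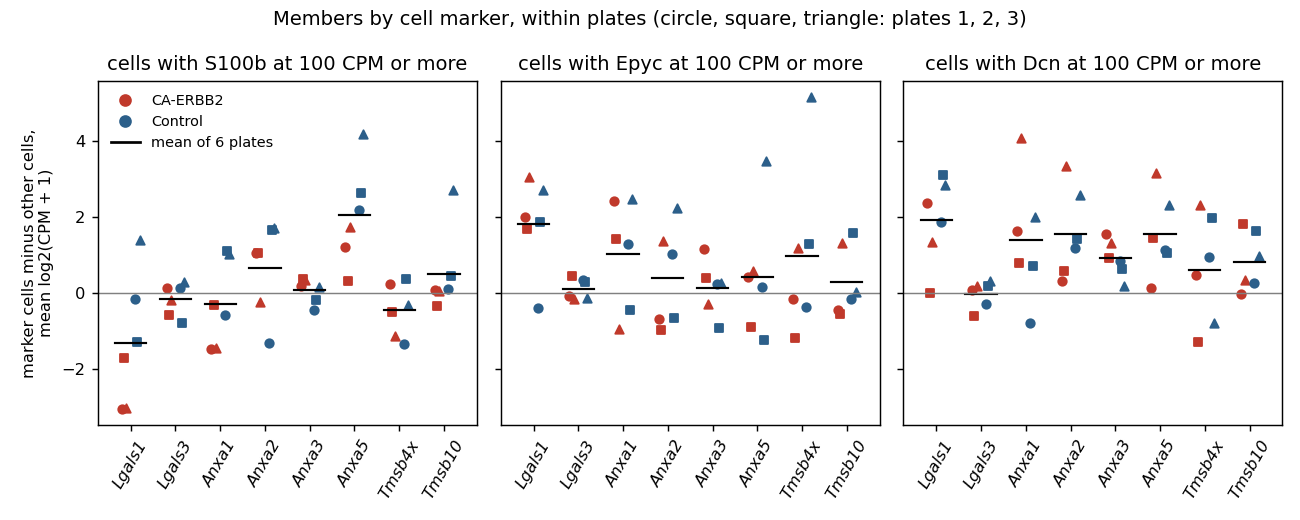
Difference of mean log2(CPM + 1) between cells with S100b, Epyc or Dcn at 100 CPM or more and the other cells, for the 8 genes on each of 6 plates (red for CA-ERBB2, blue for Control), with the mean over 6 plates as a line. Anxa5 lies above 0 on all 6 plates in the S100b and Dcn panels, and Lgals1 lies below 0 on 5 of 6 plates in the S100b panel.

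Within plates the genes did not vary as a single block. Spearman correlations were computed over the 319 cells of at least 100000 counts, each thinned to 100000, and averaged over the 6 plates. Cells of a plate share its depth and preparation, so these values are a description. Lgals1 and Tmsb4x had a mean of 0.42, Lgals1 and Anxa1 one of 0.35 (0.48 over CA-ERBB2 plates and 0.22 over Control plates), Anxa1 and Anxa2 one of 0.35, and Anxa2 and Anxa5 one of 0.35, of which 0.59 came from CA-ERBB2 plates and 0.10 from Control plates. Lgals1 with Anxa5 stood at -0.02, and Tmsb10 with Anxa1 at 0.01. The median correlation with other genes was 0.02 for Lgals1, 0.19 for Anxa1, 0.18 for Anxa2, 0.23 for Anxa5 and -0.05 for Tmsb10.

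Among 11979 genes, those most like Lgals1 by the mean over the 6 plates were Emp3 (0.51), Timp1 (0.47) and Mmp9 (0.45). On single plates these ranged from 0.37 to 0.61, from 0.18 to 0.79 and from 0.17 to 0.74. Those most like Anxa1 were Sema3d (0.52), Timp1 (0.51) and Emp3 (0.50), so that 2 genes were shared by the 2 lists. Anxa2 was followed by Myl12a (0.46), Prelid1 (0.43) and Gm26728 (0.43), Anxa3 by Itprid2 (0.49), Stom (0.47) and Msn (0.47), and Anxa5 by Me2 (0.57), Cib1 (0.56) and Ppa1 (0.56). Tmsb4x was closest to B2m (0.44), Lgals1 (0.42) and Anxa2 (0.35). Tmsb10 was closest to Gm3788 (0.43), the copy that shares sequence with it, and then to Rpl41 (0.36) and Rack1 (0.33). Some other means also hide a wide range over plates, from 0.06 to 0.81 for Anxa3 with Itprid2 and from 0.07 to 0.67 for Tmsb4x with Lgals1. Lgals3 was in too few cells to be compared.

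Macrophage markers were set against detection for Lgals3 alone, so the other 7 genes were not compared in this way. Lgals3 was found in few cells of either genotype. It had a count in 10 of 177 CA-ERBB2 cells and 7 of 177 Control cells, and at 100 CPM or more in 2 and 3 cells. Of the 12 macrophage and osteoclast markers a median of 4.5 were detected in the 10 CA-ERBB2 cells with a count of Lgals3 and 0 in the 167 without, and a median of 4 in the 7 Control cells with a count and 0 in the 170 without. The cells with a count also had more genes detected, with medians of 11598 against 3404 in CA-ERBB2 and of 10855 against 3484 in Control, and the part of that in the marker count was not tested. Among the 72 Spp1-high CA-ERBB2 cells 3 had a count of Lgals3 and 0 had 100 CPM.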

How the data were processed

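Read counts of single cells from 354 wells, 177 per genotype on 3 plates of 59 wells, were analysed. Per the labels and the methods of the study, the authors mapped trimmed reads with STAR 2.7.6a to GRCm38 with Gencode M25, counted them by strand over exons with featureCounts of Subread 2.0.1, and deposited the counts without normalization. The 8 genes, the gene lists and the tests were chosen with earlier results of these data known.

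Counts were summed per plate and fitted with edgeR 4.0.16 (TMM factors, filterByExpr, quasi-likelihood test, 3 plates against 3), and genes were called at an adjusted p under 0.05 with a log2 fold change above 1 in size. Within plates, differences were taken on log2(CPM + 1) with a pseudocount of 1, with no cell left out unless stated, and required at least 3 cells on each side. Genes named outside the 8 are all counted members of the family and S100 lists, the 3 genes of smallest p or those called in the actin and repair lists, and the 3 genes of highest correlation. Gsn, Coro1c, Msn, Ahnak, Arpc5, Vps4b Cdh1, Krt18, Cryab, Itm2a and the mesenchyme markers were named after their values were seen. Each edgeR and within-plate step was tested on simulated data. DESeq2 1.42.0 and limma 3.58.1 gave alternatives. Annotation came from GENCODE M21, which is also on GRCm38. No 2 wells had identical counts, and nothing says that plates used separate litters, so spread between plates may be partly technical.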

Additional observations from a re-analysis of the deposited data

How the results depend on the processing

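The genotype comparison called 1 gene in all and depended on the tool and the filter. The 8 were chosen on this contrast, so nothing is read from the counts among them. DESeq2 called 235 genes (1 of the 8, 2 of the other family members and 1 of the actin, repair and S100 genes), and edgeR without a filter on low counts called 285 of 39201 (2 of the 8 and 3 of the actin, repair and S100 genes). Weighting each cell equally in limma and keeping cells with at least 2000 genes detected, a setting added after seeing the data, called 0 genes each. Without 1 plate in turn the count over all genes ranged from 0 to 2, and the count among the 8 genes stayed at 0, as did those of both sets of lists. The median log2 fold change of the 8 genes then ranged from 0.99 to 2.28, highest without Control plate 2. The same plate numbers correlated at 0.212, 0.082 and 0.084 between genotypes, and since labels do not say that a number marks a shared day, plates were not paired. Each plate correlated best with its own number. With the plate number as a replicate block 1 gene was called, 0 of the 8 and 0 of the lists, and the median of the 8 was 1.25.

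In the Spp1 comparison the number of the 8 genes above 1 on all CA-ERBB2 plates was 4 with the threshold at 1000 CPM, ranged from 2 to 6 without 1 plate in turn (6 without plate 1), and was 2 or 3 in the other alternatives. Without 1 plate in turn the median difference of the 8 genes ranged from 0.94 to 2.65. It lay below that range on the log2 ratio of mean CPM + 1 and without the cells that carried all 4 matrix genes. In each of the 13 alternatives it stayed within 1 SD of the 3 plate medians. The plates differed widely, so a large fall could also stay within that SD. On the ratio Lgals3 (-2.13), Anxa5 (-0.10) and Tmsb10 (-0.06) were below 0. Anxa3 (0.13), Anxa2 (0.34), Tmsb4x (0.70), Lgals1 (2.68) and Anxa1 (3.38) were above 0. Lgals1 and Anxa1 were above 1 on every plate used in each of the 13 alternatives. Their lowest means were 2.68 for Lgals1 with the ratio of mean CPM and 2.62 for Anxa1 without the cells that carried all 4 matrix genes. The marker comparison called 0 pairs in each alternative, including 0 without each plate, where its smallest p could not pass. Single differences of the 8 genes moved by over 1 SD in 6 of 112 genotype and 7 of 104 Spp1 cases, and the cause was not tested. Depth limits detection in the 33 shallow Control cells.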

Other observations

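Some values of other cell markers stood apart on the same plates and belong to no comparison above. All 4 red blood cell markers were lower in the summed counts of CA-ERBB2, with log2 fold changes from -4.91 to -4.08 and every CA-ERBB2 plate below every Control plate in 3 of 4, although edgeR's test called 0 of them (4 at an unadjusted p under 0.05) and DESeq2 called 3. Of all 21416 genes, 1046 had every CA-ERBB2 plate below every Control plate, and 512 were below 0 at an unadjusted p under 0.05. DESeq2 called 235 in either direction. Their summed level per cell reached 723752 CPM in a Control cell. Its medians were 12.6 and 0.289 CPM in Control cells with and without Spp1 at 100 CPM or more, and 0.653 and 0.468 CPM in those of CA-ERBB2. All 8 hair cell markers lay below 0 as well, from -5.07 to -0.50, with 0 called by edgeR (2 at an unadjusted p under 0.05) and 0 by DESeq2.

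The highest Lgals1 level of any cell was found in a Control cell on plate 2, at 193694 CPM, which came from 41340 of 213429 counts in a well with 273 genes detected.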
